A study of Mus musculus with 8 samples.

Results

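Solute carrier (Slc) genes were followed through the peaks of DDX5, a DEAD-box RNA helicase, on the RNA of mouse intestinal epithelial cells (IECs). The group was defined as the protein-coding genes of GENCODE M21 (build GRCm38) whose symbol is Slc followed by a digit, with at least 1 called peak on their strand in any of 3 peak lists. Of 371 such genes, 99 had a peak, among 5892 protein-coding genes with a peak in all. They carried 388 peaks.

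Solute carriers are membrane proteins that move sugars, amino acids, ions, metals, vitamins and nucleotides across the plasma membrane or the membranes of organelles. In the intestine, carriers on the apical side of the epithelium take up nutrients and ions from the lumen, and carriers on the basolateral side pass them on to the blood. Others, such as the SLC25 family of the mitochondrial inner membrane and the SLC35 family of the Golgi and endoplasmic reticulum, serve every cell. Some genes carry an Slc symbol for a protein that binds a carrier and is not one itself.

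Binding was measured by eCLIPseq. In this assay, UV light ties proteins to RNA they contact, DDX5 is pulled down with an antibody (IP), and the RNA fragments it carries are sequenced and set against an input library of the same size range that was not pulled down. The small intestine list was made from 2 CLIP and 2 input samples of IECs from 8-week-old wild-type female C57BL/6 mice. Each colon list was made from 1 CLIP and 1 input sample of colonic IECs, with the CLIP sample named mAb in one list and rAb in the other, and all CLIP samples gave the same antibody catalogue number. The colon labels were at odds with each other, since the genotype label read wild type whereas 120-day-old Apcfl/+ CDX2Cre mice were given under growth, in which a Cre driven by CDX2 acts on a floxed Apc allele. The study's own text gives wild-type mice for this assay in the colon, and an age below 120 days for the mice of its IEC assays. The deposited colon lists were also named as merged from 2 replicates. Tissue, age, genotype and library type (single-end in the colon, paired-end in the small intestine) therefore cannot be told apart, and no list had values per replicate. No value below was tested between lists, and all intervals cover counting error only.

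The cells were checked against marker genes by counting which had a called peak. Of 6 epithelial markers, the same number (5) had a peak in every list. Of 7 small intestine enterocyte markers, 5 had a peak in the small intestine list and 0 in either colon list. Of 6 colon epithelium markers, 6 had a peak with mAb, 2 with rAb and 0 in the small intestine. Stromal markers also had peaks in the colon lists, 4 of 4 with mAb (78 peaks) and 3 of 4 with rAb (64 peaks), and none in the small intestine. Of 5 immune markers, only Lyz2 had peaks, 4 with mAb and 5 with rAb. The part of these cells in the Slc values was not tested.

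With mAb, 84 of the 371 Slc genes had a called peak, or 22.6% (exact 95% interval, 18.5 to 27.2). The share over all protein-coding genes was 22.6%. With rAb, 54 Slc genes had a peak, or 14.6% (11.1 to 18.6), beside 15.6% of all protein-coding genes. In the small intestine, 8 had a peak, or 2.16% (0.935 to 4.2), beside 2% of all protein-coding genes. The Slc genes were thus called at about the rate of any protein-coding gene in each list. The 2 colon lists held every called peak, whereas the small intestine list had been filtered by the authors, so the counts of the 2 tissues are not comparable.

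The 99 genes came from 35 of the 49 Slc families of the annotation. They were 26.7% of all 371 Slc genes (22.3 to 31.5). Over all protein-coding genes, 5892 of 21951 had a peak in any list, a share within that range. No family was tested against it. In Slc25, the largest family, which holds the mitochondrial carriers, 14 of 47 genes were called (29.8%), in Slc35 9 of 27 (33.3%) and in Slc6 7 of 21 (33.3%). In the large Slc22 family of organic anion and cation transporters, 3 of 25 genes were called (12%). Of these, Slc22a14 had only intronic mAb peaks, of which 3 also lay in the gene Oxsr1 and 1 in Myd88 on the same strand. No gene of the Slc17, Slc18, Slc28 or Slc34 families had a peak in any list. Of the 99 genes, 56 were called in 1 list, 39 in 2 and 4 in all 3. The 2 colon lists shared 42 genes, which were 50% of the mAb genes and 77.8% of the rAb genes. The genes called only in the small intestine were Slc5a1, Slc6a19 and Slc43a2. Sharing between lists was not worked out over all protein-coding genes, so these counts do not set the Slc genes apart from other genes.

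Most of the colon peaks with traced reads rested on few of them. The deposited files give for each peak a log2 fold (IP reads over input reads, each normalised for depth) and a −log10 p, and in the colon lists these values could be traced to whole reads for most peaks, on Slc genes for 200 with mAb and 117 with rAb. The median over the traced Slc peaks was 3 IP reads in both colon lists, as it was over all traced peaks on protein-coding genes. A peak of 3 IP reads over 1 input read made up 26.1% of the Slc peaks with mAb (25.2% over protein-coding genes) and 25.4% with rAb (25%). The reads were traced by taking the commonest log2 fold of each list, 2.15 with mAb and 3.24 with rAb, as 3 over 1 reads, which puts the input at 1.48 times the IP depth for mAb and 3.15 times for rAb. Under that reading, the folds of the 2 lists are not on the same footing. The median log2 fold of Slc peaks was 1.56 with mAb (1.15 over protein-coding genes), 2.24 with rAb (2.24) and 3.73 in the small intestine (4.27). Folds below 0, which are peaks with fewer IP than input reads for the depth, were 8.4% of Slc peaks with mAb (15.3% over protein-coding genes) and 3.17% with rAb (7.15%).

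A peak with both values above 3 is called a site here. With mAb, 5 of 238 Slc peaks were sites, or 2.1% (0.686 to 4.83), where 1.08% of all peaks on protein-coding genes were. With rAb, 6 of 126 were, or 4.76% (1.77 to 10.1), beside 1.74%. All listed small intestine peaks were sites by the authors' filter, 24 of 24 on Slc genes and 100% on protein-coding genes. Over the 3 lists, 10 Slc genes had a site. In the colon, however, all 5 mAb sites and 5 of the 6 rAb sites were pieces of a single stretch in Slc22a22, so that 0 mAb sites and 1 rAb site lay elsewhere.

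**Figure D1:**
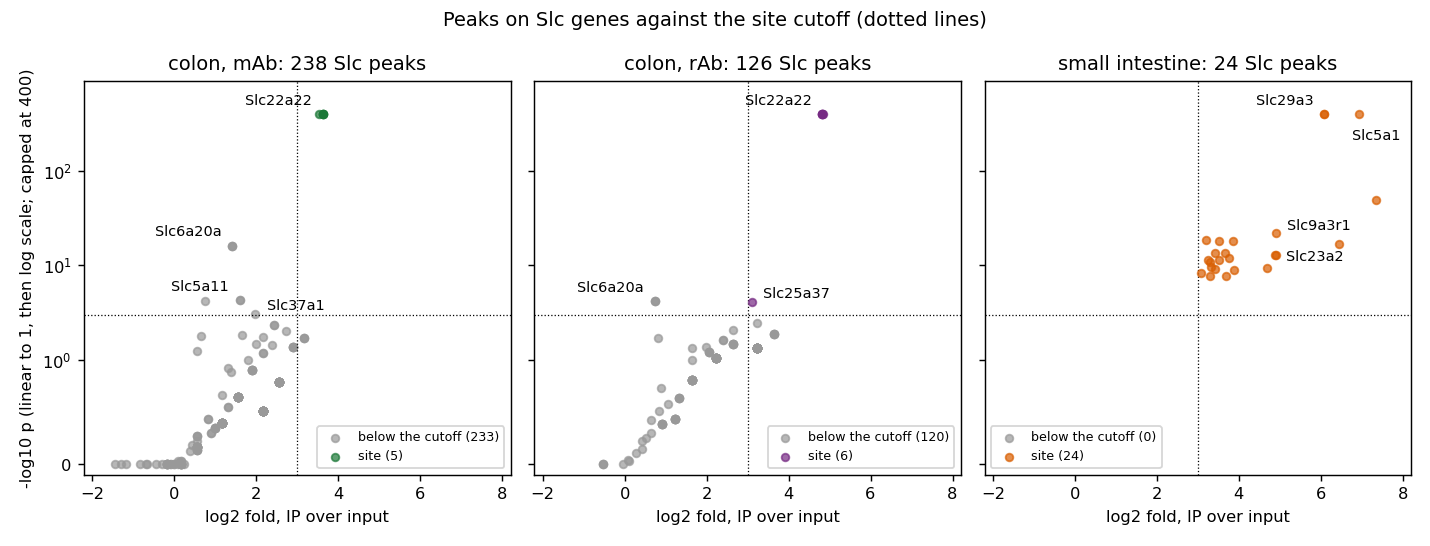
Each point is a called peak on an Slc gene, with its log2 fold of IP over input (x axis) and its −log10 p (y axis, linear up to 1 and logarithmic above, capped at 400 in the deposited values), for the colon mAb, colon rAb and small intestine lists. Coloured points are sites, and the dotted lines are the cutoff of 3. In the colon, the Slc22a22 intervals stand alone at the cap, while the 24 small intestine peaks all lie past the cutoff.

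Slc22a22 encodes a renal organic anion transporter that carries prostaglandins. Its peaks covered chr15:57433183-57433252 with mAb and chr15:57433183-57433249 with rAb, on the minus strand, within intron 2 of a 12-exon transcript. Each list split this stretch into 5 adjoining intervals. The log2 fold of the intervals was 3.52 to 3.62 with mAb and 4.81 to 4.83 with rAb, and the −log10 p was at the cap of 400 for all 10. The reads of these intervals were not traced, since their p was capped, and only the smallest whole reads that yield each fold could be given, which are lower bounds. They were 2641 IP over 340 input reads to 2965 over 356 with mAb. With rAb they were 98 over 11 to 3158 over 349. Among the Slc peaks with traced reads, the highest number was 191 IP reads. No peak of this gene was listed in the small intestine.

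All bases of the stretch were soft-masked, that is, marked as repeats in the reference genome. Of the 10 intervals, 9 matched ribosomal RNA, the RNA of the ribosome itself, over at least 20 bases with 15 bases of flank included. Outside Slc22a22, 1 Slc peak did so, a mAb peak of 3 over 1 reads in the 3′ UTR of Slc44a2. Over all peaks on protein-coding genes, 0.39% matched ribosomal RNA with mAb and 0.354% with rAb. Whether the reads came from Slc22a22 RNA or from ribosomal RNA was not tested. With ribosomal RNA-like peaks left out, the mAb list had 0 Slc sites and the rAb list 2. Of these 2, 1 was in Slc25a37. The other was the unmatched interval of Slc22a22, a 6-base end piece of the same soft-masked stretch (chr15:57433244-57433249).

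The only other colon site was in Slc25a37, which encodes mitoferrin-1, the iron carrier of the mitochondrial inner membrane. With rAb it lay at chr14:69243513-69243544, in the 3′ UTR, where 11 IP and 4 input reads gave a log2 fold of 3.11 (−log10 p 4.09). With mAb, 2 peaks at the same place each had 11 IP and 3 input reads and a log2 fold of 2.44 (−log10 p 2.3). The IP reads were the same number in both lists, and the cutoff was passed only with rAb.

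A log2 fold above 1 with −log10 p above 3 was passed by 11 Slc peaks with mAb, or 4.62% (2.33 to 8.12), where 2.05% of peaks on protein-coding genes passed, and by 6 with rAb, where 3.60% passed. A Benjamini-Hochberg adjusted p under 0.05 over the whole list, with a fold above 0, was passed by 12 with mAb, or 5.04%, beside 2.18%, and by 9 with rAb, or 7.14% (3.32 to 13.1), beside 5.06%. Apart from Slc22a22 and Slc25a37, these peaks lay in 4 genes. All of these peaks were intronic, with log2 folds of 0.73 to 1.96 and 21 to 191 IP reads. Outside Slc22a22, 6 of the 11 and 7 of the 12 mAb peaks remained, and 1 of the 6 and 4 of the 9 rAb peaks. Of those left with mAb, 3 were adjoining intervals in Slc6a20a and 2 in Slc5a11. The ranges in brackets treat such pieces of the same stretch as independent, so these shares do not show an excess on Slc genes.

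Slc6a20a, an imino acid transporter that takes up proline, had 3 adjoining intervals in intron 1 in each colon list. With mAb each had 191 IP and 106 input reads and a log2 fold of 1.41 (−log10 p 16.2). With rAb each had 97 IP and 184 input reads and a log2 fold of 0.73 (−log10 p 4.22). The 29 bases of the mAb stretch (chr9:123672815-123672843, minus strand), in capitals, lie in a soft-masked run of pyrimidines, with 3.45% purines.
Slc6a20a intron 1: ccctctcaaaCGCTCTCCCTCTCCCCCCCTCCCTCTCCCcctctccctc
Slc5a11, an inositol transporter, had 2 intervals in intron 1 with mAb, at chr7:123220019-123220045, each with 39 IP and 19 input reads and a log2 fold of 1.60. The rAb peak there had 14 IP and 41 input reads and a log2 fold of 0.10 (−log10 p 0.0269). Slc37a1, a glucose-6-phosphate transporter, had a mAb peak of 21 IP and 8 input reads in intron 17, in soft-masked sequence, with a log2 fold of 1.96. It had no rAb peak. In Slc25a3, the mitochondrial phosphate carrier, a mAb peak of 132 IP and 117 input reads in intron 5 had a log2 fold of 0.74 (−log10 p 4.21). A small nucleolar RNA gene, Gm24119, lies at that place on the same strand. In rAb the overlapping peak had 21 IP and 62 input reads and a log2 fold of 0.09. At none of these 4 places did both lists give a log2 fold above 1.

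Folds near the cutoff were carried by very few reads. With mAb, the highest log2 fold outside Slc22a22 was 3.15, from 6 IP reads over 1 input read, in Slc39a10 (a zinc importer), Slc5a3 (an inositol transporter) and Slc7a1 (a cationic amino acid transporter). The −log10 p of these peaks was 1.7, below the cutoff. The Slc5a3 peak, like the other mAb peaks of that gene, also lies in Mrps6, the gene of a mitochondrial ribosomal protein, and in Gm49711 on the same strand. The next value was 2.89, from 5 reads over 1, in Slc15a4, Slc25a10, Slc2a1, Slc39a7 and Slc4a2. With rAb, 4 over 1 reads gave a log2 fold of 3.65 (−log10 p 1.87) in Slc22a5, Slc37a3 and Slc6a9, among others. A log2 fold of 3.24 with rAb stood for 3 over 1 reads (−log10 p 1.34) in 32 peaks and for 6 over 2 in 1 peak, in Slc25a24 (−log10 p 2.46). All of these peaks were past the cutoff for the fold, except those at 2.89, and none was past it for the p.

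Read numbers were not traced in the small intestine. Its 24 sites lay on 8 genes, and for all 24 the gene and the region in the authors' table were the same as those assigned here. Slc5a1 had 12 of them. It encodes SGLT1, the sodium-coupled carrier that takes up glucose and galactose at the brush border of enterocytes. Of its sites, 7 overlapped coding sequence, in exons 2, 3, 4 and 15 of 15, 3 were in the 3′ UTR and 2 in intron 2. The stretches at exons 2, 3 and 4 each crossed an exon border and reached a few bases into the intron. The log2 fold was 3.25 to 3.87 in the coding sequence. In the 3′ UTR it was 6.45 at the first site and 3.31 and 3.42 at the others. In the intron it was 6.93 (−log10 p at the cap) and 7.36 (−log10 p 48.8), the highest value on any Slc gene in the list. Neither colon list had a peak on Slc5a1.

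The strongest intronic sites of Slc5a1 lay next to each other in a run of GAA repeats (plus strand). Their sequences are given with 10 bases on either side and the peak in capitals, after the 2 adjoining peaks at exon 2 for comparison. The capitals of the exon 2 stretch end in the first bases of intron 2.
Slc5a1 exon 2, chr5:33116798-33116856: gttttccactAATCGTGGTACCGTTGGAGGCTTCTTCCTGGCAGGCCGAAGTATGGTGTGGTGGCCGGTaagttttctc
Slc5a1 intron 2, chr5:33118516-33118605: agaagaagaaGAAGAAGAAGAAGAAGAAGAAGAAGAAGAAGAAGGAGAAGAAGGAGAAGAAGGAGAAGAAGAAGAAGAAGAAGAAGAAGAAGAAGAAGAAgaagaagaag
Slc5a1 intron 2, chr5:33118637-33118702: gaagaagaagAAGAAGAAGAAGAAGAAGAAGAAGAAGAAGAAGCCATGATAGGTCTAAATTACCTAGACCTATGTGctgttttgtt
The first intronic peak was 100% purine and fully soft-masked, held GAA 27 times, and its 90 bases occurred 2 times in the genome. The second was 68.2% soft-masked and held GAA 10 times, in its first part. The exon 2 peak had 52.5% purines and no soft-masked base. In the 3′ UTR, the last site of the gene was also 66.2% soft-masked, with GAA 5 times. With mostly soft-masked peaks left out, 20 of the 24 small intestine sites remained.

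**Figure D2:**
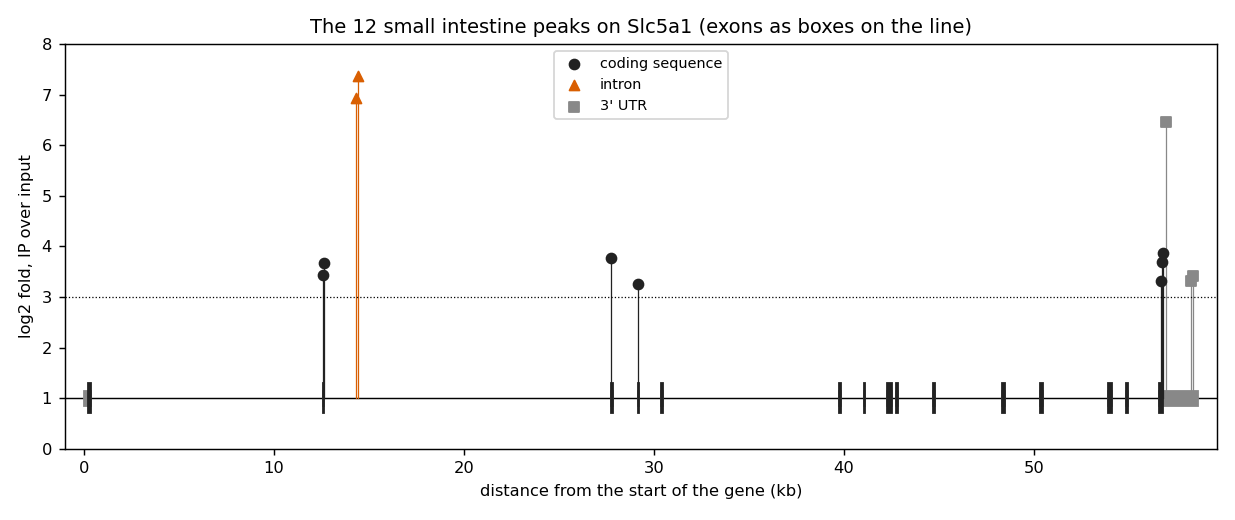
The 12 small intestine peaks on Slc5a1, by distance from the start of the gene (x axis, kb) and log2 fold of IP over input (y axis). Exons are boxes on the line, taller and black where coding, and the dotted line is the cutoff of 3. The 2 intronic peaks and the first 3′ UTR peak lie above 6, and the others between 3.25 and 3.87.

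Slc29a3, a nucleoside transporter of lysosomes, had the only other Slc peaks at the p cap in the small intestine. Its 2 intervals in intron 2 both had a log2 fold of 6.09. They are given in capitals, with 6 bases between them (chr10:60739807-60739831, minus strand). A mAb peak at the same place had 3 over 1 reads and a log2 fold of 2.15.
Slc29a3 intron 2: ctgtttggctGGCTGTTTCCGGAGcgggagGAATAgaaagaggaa
Slc23a2, the vitamin C transporter SVCT2, had 2 adjoining intervals in intron 1, within 500 bases of an exon, with log2 folds of 4.90 and 4.88 (−log10 p 12.8). The intervals, in capitals, lay in GC-rich sequence (chr2:132144774-132144798, minus strand).
Slc23a2 intron 1: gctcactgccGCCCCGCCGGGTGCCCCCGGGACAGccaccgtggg
Slc9a3r1 encodes NHERF1, a scaffold protein that binds the sodium/proton exchanger NHE3 and is not a carrier. Its sites were in intron 1 (log2 fold 4.92) and in the 3′ UTR (4.68). The intronic peak (chr11:115164563-115164633, plus strand) is rich in G.
Slc9a3r1 intron 1: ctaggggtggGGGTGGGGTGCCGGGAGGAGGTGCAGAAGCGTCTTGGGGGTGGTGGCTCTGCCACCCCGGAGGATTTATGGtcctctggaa
The colon peaks of Slc23a2 and Slc9a3r1 lay elsewhere in the genes and had log2 folds of 0.92 to 2.15, from 3 or 4 IP reads.

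The remaining small intestine sites were exonic and closer to the cutoff. Slc25a3 had a site in coding sequence (log2 fold 3.52), in an exon that the principal transcript lacks, and one in the 5′ UTR (3.09). Slc6a8, the creatine transporter, had 2 in coding sequence (3.52 and 3.32). They are given with the peak in capitals, as coding peaks outside repeats.
Slc25a3 exon 3, chr10:91121927-91122001, minus strand: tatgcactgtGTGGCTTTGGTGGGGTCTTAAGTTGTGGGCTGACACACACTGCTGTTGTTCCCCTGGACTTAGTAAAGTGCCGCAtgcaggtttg
Slc6a8 exon 4, chrX:73677359-73677436, plus strand: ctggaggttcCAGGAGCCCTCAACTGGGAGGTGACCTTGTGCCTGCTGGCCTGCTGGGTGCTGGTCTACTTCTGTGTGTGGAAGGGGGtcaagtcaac
Slc6a19, the brush border transporter B0AT1 for neutral amino acids, had a site in the 3′ UTR (3.89). Slc43a2, a basolateral carrier of neutral amino acids, had a site in the 3′ UTR (3.19), of which 61.1% of the bases were soft-masked. Over the small intestine Slc sites, 16.7% were mostly soft-masked, against 8.58% over protein-coding genes, 17.6% against 12% with mAb and 14.3% against 6.68% with rAb. In each colon list, 5 of these peaks were pieces of the Slc22a22 stretch and 3 of the Slc6a20a stretch. Apart from the Slc43a2 site, those of the small intestine were all in Slc5a1. The shares were not tested and do not show an excess on Slc genes.

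Of the 24 small intestine peaks, 3 overlapped a mAb peak, or 12.5% (2.66 to 32.4), where 33.8% of peaks on protein-coding genes did. With rAb, 1 did, or 4.17% (0.105 to 21.1), where 16.6% did. Of the 24 peaks, 12 were on Slc5a1, which had no colon peak. The ranges in brackets treat peaks of the same gene as independent, so these shares do not set the Slc genes apart. Beside the 2 intervals of Slc29a3, the overlaps were in Slc25a3. At the 5′ UTR site, a mAb peak had 9 IP and 2 input reads and a log2 fold of 2.73 (−log10 p 2.01). At the coding site, a rAb peak had 6 IP and 14 input reads and a log2 fold of 0.43. Between the colon lists, 35 of the 238 mAb peaks overlapped a rAb peak, or 14.7% (10.5 to 19.9), and 17% did over protein-coding genes. In the other direction it was 31 of 126 peaks, or 24.6% (17.4 to 33.1), and 30.3%.

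By region, 40.8% of the mAb Slc peaks were in coding sequence (34.5 to 47.3), where 51.5% of peaks on protein-coding genes were. With rAb it was 48.4% (39.4 to 57.5) and 57.8%, and in the small intestine 41.7% (22.1 to 63.4) and 36.7%. Introns farther than 500 bases from an exon, called distal, held 25.2% of the mAb Slc peaks (19.8 to 31.2), beside 19.2%. With rAb they held 17.5% (11.3 to 25.2), beside 13%, and in the small intestine 20.8% (7.13 to 42.2), beside 13.9%. The 3′ UTR held 14.3%, 18.3% and 25% of the Slc peaks with mAb, with rAb and in the small intestine, beside 12.5%, 14.3% and 9.49%. Introns within 500 bases of an exon held 11.3%, 4.76% and 8.33%, beside 7.7%, 5.62% and 27.8%. These differences were not tested, and many peaks share a gene.

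**Figure D3:**
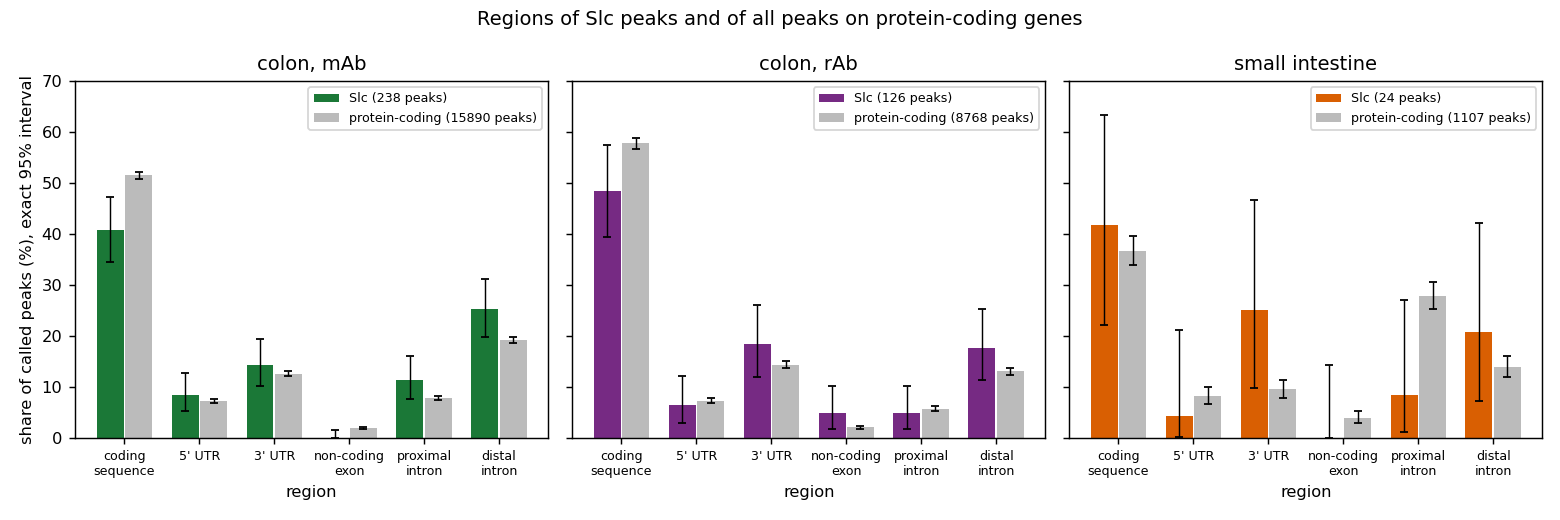
Share of called peaks in each region (y axis, %) for Slc genes (coloured) and for all protein-coding genes (grey) in the colon mAb, colon rAb and small intestine lists. Bars start at 0, and error bars are exact 95% intervals for counting error. In both colon lists the Slc share in coding sequence is below the grey bar, and in distal introns above it.

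With mAb, the median log2 fold of Slc peaks was 1.15 in coding sequence and 2.15 in distal introns, and over protein-coding genes it was 0.98 and 2.15. With rAb it was 2.07 and 3.24, beside 1.65 and 3.24. The distal intron medians of both colon lists are those of 3 over 1 reads. In introns within 500 bases of an exon the median was 2.15 with mAb, beside 2.15, and 2.03 with rAb over 6 peaks in 3 genes, beside 3.24. In the small intestine the median was 3.52 in coding sequence and 6.09 in distal introns, the latter over 5 peaks in 3 genes, beside 3.73 and 5.24.

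Peaks were unevenly spread over the genes. With mAb 32 of the 84 genes had a single peak and 8 had more than 5, and with rAb 25 of 54 had a single peak and 4 had more than 5. By the number of peaks over all lists, Slc12a2 led with 23, followed by Slc9a3 with 20, Slc25a3 with 16, and Slc38a1 and Slc6a6 with 14 each. None of these peaks was a site except the 2 of Slc25a3 in the small intestine.

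**Figure D4:**
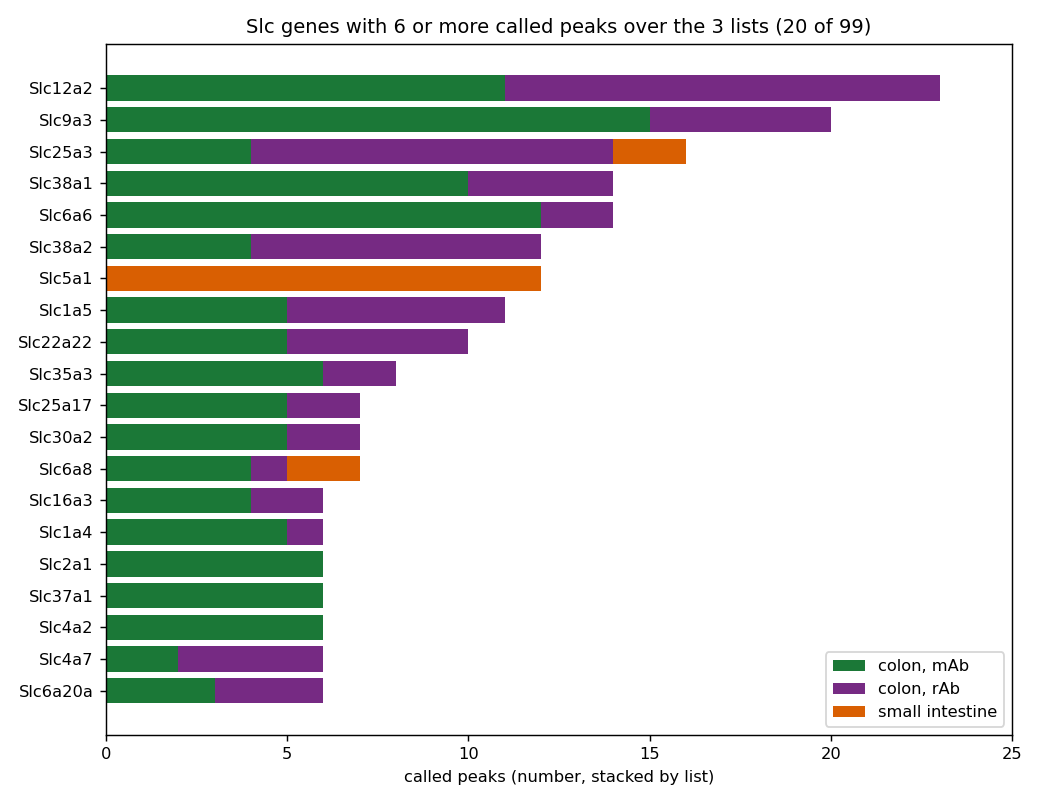
Called peaks (x axis, number) on each of the 20 Slc genes with 6 or more peaks over the 3 lists, stacked by list. Slc12a2 leads with 23 peaks, all in the colon, and the 12 peaks of Slc5a1 are all from the small intestine.

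The counts of the carrier groups stand beside 22.6% of all protein-coding genes called with mAb, 15.6% with rAb and 2% in the small intestine, and no group was tested against these shares. Apart from the SLC25 and SLC35 families, the groups are chosen genes, picked with earlier results of these data known. Their shares therefore do not show an excess over protein-coding genes. Of 20 carriers of ions, bicarbonate and protons, 15 had a mAb peak (75%), 5 a rAb peak (25%) and 0 a small intestine peak, with 62, 25 and 0 peaks and no site. Their median log2 fold was 1.56 with mAb and 2.24 with rAb, the same as over all Slc peaks. In the whole families that these 20 genes were chosen from, fewer of the genes had a mAb peak in most cases. It was 2 of 11 genes in Slc4, 5 of 14 in Slc9, 4 of 9 in Slc12 and 2 of 11 in Slc26. In the small families it was 3 of 4 in Slc8, 2 of 2 in Slc20 and 0 of 3 in Slc34. Slc12a2, the sodium, potassium and chloride cotransporter NKCC1, had 11 mAb peaks with log2 folds of -0.17 to 2.15 and 12 rAb peaks with -0.52 to 2.65. Of its mAb peaks, those with most traced reads, 25 IP over 35 input and 20 over 28, were in exon 1 and had a log2 fold of 0.08. Slc9a3, the apical sodium/proton exchanger NHE3, had 15 mAb peaks, 12 of them coding, with log2 folds of -1.31 to 1.89. Its 5 rAb peaks were all intronic, at 1.24 to 3.24. Slc4a2, a chloride/bicarbonate exchanger, had 6 mAb peaks at 0.56 to 2.89 and no rAb peak. Slc4a7, a sodium/bicarbonate cotransporter, had 2 mAb and 4 rAb peaks, all coding. Slc26a3, the chloride/bicarbonate exchanger of the colonic surface, had 2 mAb peaks of 3 and 4 IP reads and no rAb peak.

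Of 22 amino acid and peptide transporters, 8 had a mAb peak (36.4%, with 37 peaks), 9 a rAb peak (40.9%, 29 peaks) and 2 a small intestine peak (9.09%, 2 peaks, both sites), beside 22.6%, 15.6% and 2% of all protein-coding genes. The median log2 fold was 1.41, 1.65 and 3.54. Most peaks over the 3 lists were on Slc38a1 and Slc6a6 (14 each), Slc38a2 (12) and Slc1a5 (11). Of these, Slc38a1, Slc38a2 and Slc1a5 carry glutamine and other small neutral amino acids. Slc38a1 had 10 with mAb (log2 fold -0.17 to 2.56) and 4 with rAb (1.65 to 2.24). Slc38a2 had 4 with mAb (-0.44 to 2.15) and 8 with rAb (0.43 to 2.24). Slc1a5 had 5 with mAb (-1.17 to 1.15) and 6 with rAb, all coding (0.65 to 2.39). Slc6a6, the taurine transporter, had 12 with mAb, 6 of them intronic (0.08 to 2.56), and 2 with rAb, both in the 3′ UTR (2.65 and 3.24). None of these 4 genes had a traced peak of more than 8 IP reads.

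Of 10 sugar transporters, Slc5a1, Slc5a11 and Slc2a1 were called, which were 20% with mAb, 10% with rAb and 10% in the small intestine. Slc2a1, the glucose carrier GLUT1, had 6 mAb peaks with log2 folds of 0.15 to 2.89 and no rAb peak. The related Slc2a3 (GLUT3), which was not in that list, had 4 coding peaks with rAb, each of 3 over 1 reads, and none with mAb. Among 29 carriers of bile acids, short-chain fatty acids and organic anions and cations, 11 had a mAb peak (37.9%, beside 22.6% of protein-coding genes) and 6 a rAb peak (20.7%, beside 15.6%), with 25 and 11 peaks. The 5 sites in each list were those of Slc22a22, and the medians of 2.15 and 3.65 include them. Slc16a3, a lactate carrier, had 4 mAb peaks (-0.66 to 1.15) and 2 rAb peaks (1.24 and 1.65). The choline carrier Slc44a1 had 4 mAb peaks (-0.17 to 2.37) and 1 rAb peak (0.52), and the thiamine pyrophosphate carrier Slc44a4 had 3 and 1, with a highest log2 fold of 1.15 and 2.07.

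Of 18 carriers of iron, zinc, copper and magnesium, 7 had a mAb peak (38.9%, beside 22.6% of protein-coding genes) and 4 a rAb peak (22.2%, beside 15.6%). These were 14 mAb peaks with a median log2 fold of 1.65 and 6 rAb peaks with one of 2.24, with the rAb site in Slc25a37. The zinc carrier Slc30a2 had 5 mAb peaks (-0.85 to 1.15) and 2 rAb peaks (1.24 and 2.24). Slc39a7, which releases zinc from the endoplasmic reticulum, had 3 mAb peaks with a highest log2 fold of 2.89, and all 3 overlapped a non-coding gene on the same strand. The copper importer Slc31a1 had 1 peak in each colon list (1.15 and 2.24). Slc40a1, the iron exporter ferroportin, had 1 mAb peak of 3 IP reads (2.15).

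In the SLC25 family, 11 of 47 genes had a mAb peak (23.4%), 13 a rAb peak (27.7%) and 1 a small intestine peak (2.13%), beside 22.6%, 15.6% and 2% of all protein-coding genes. They held 24, 29 and 2 peaks, with median log2 folds of 1.26, 2.24 and 3.31. Slc25a3 had 4 mAb peaks, 3 of them in the intron that holds the small nucleolar RNA gene, and 10 rAb peaks with log2 folds of -0.53 to 1.65, of which 4 were coding. Slc25a17, a peroxisomal carrier, had 5 mAb and 2 rAb peaks (0.56 to 2.15 and 1.65 to 2.65). Slc25a1, the citrate carrier, had 2 in each list, with a highest log2 fold of 0.56 and 3.24. In the SLC35 family of nucleotide sugar transporters, 7 of 27 genes had a mAb peak (25.9%, beside 22.6%) and 5 a rAb peak (18.5%, beside 15.6%), with 13 peaks (median log2 fold 1.56), 8 peaks (2.82) and no site. Slc35a3, which carries UDP-N-acetylglucosamine, had 6 mAb peaks (1.15 to 2.56) and 2 rAb peaks (2.39 and 3.24). Slc35c1, which carries GDP-fucose, had 1 and 2, with a highest log2 fold of 2.56 and 3.24. Together the 7 lists held 71 of the 99 called genes, and 28 were in none.

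**Figure D5:**
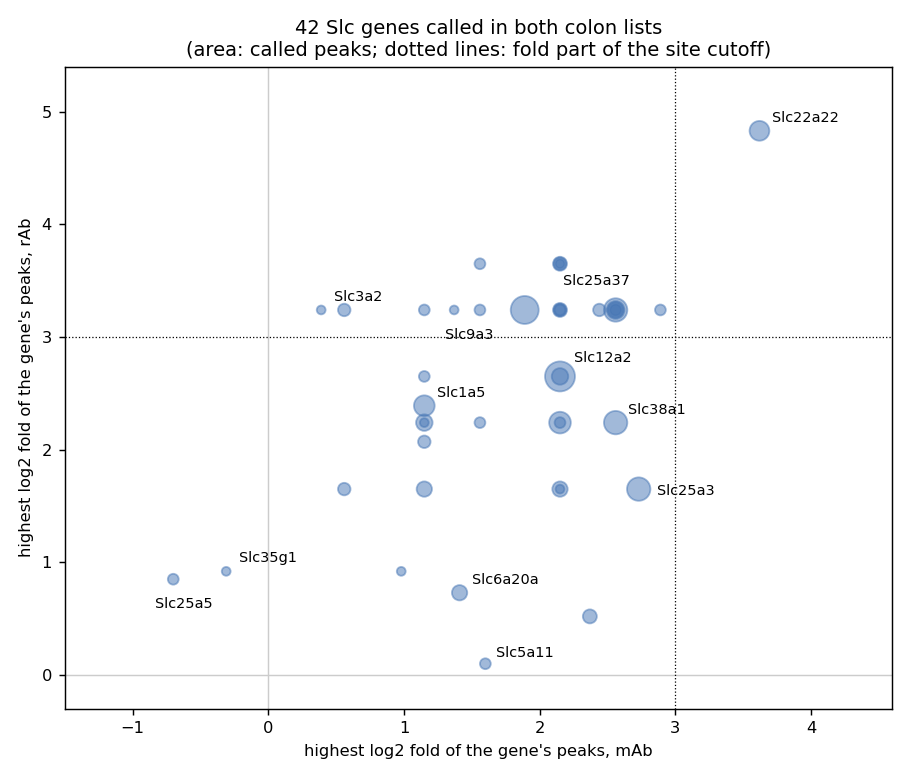
The 42 Slc genes called in both colon lists, by the highest log2 fold of their peaks with mAb (x axis) and with rAb (y axis). The area of a point grows with the number of called peaks, points overlap where genes share a fold, and the dotted lines mark the fold part of the cutoff. Slc22a22 (3.62 and 4.83) lies past 3 in both lists, and the row at 3.24 with rAb is mostly 3 over 1 reads.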

How the data were processed

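DDX5 eCLIPseq peak lists were analysed as deposited, 1 from small intestine IECs and 2 from colonic IECs. After trimming and alignment the authors ran CLIPper on IP reads (per the submitters' processing notes: cutadapt 1.9.1, STAR 2.4.0i and SAMtools 1.4.1, build mm10). The deposited log2 fold is depth-normalised IP over input reads, and the deposited −log10 p is that of the enrichment, capped by the authors at 400. Small intestine replicates were merged by the authors by Irreproducible Discovery Rate and filtered at 3 for both values. A list that no sample label named (2 value columns) was left out. The members and gene lists were chosen with earlier results of these data known.

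Peaks were assigned on their strand to GENCODE M21 genes by any overlap, with priority to coding sequence, 5′ UTR, 3′ UTR, non-coding exon, proximal intron (within 500 bases of an exon) and distal intron. A peak in both an Slc and another gene was kept, which held for 26 peaks. Adjacent intervals were counted apart. Some items are not reported here. Genes named were those with a site, the 10 with the highest log2 fold per list and those called in all lists. Slc22a22 and up to 4 genes with most peaks per functional list were also named. Slc26a3, Slc40a1, Slc2a3, Slc44a2, Slc25a24 and Slc22a14 were added after their values were seen. Of the metal transporters, 18 of 19 listed symbols were found in the annotation. Depth was unknown, so whole reads were worked out as the lowest IP and input numbers that yield the log2 fold and, within 1%, the p of Fisher's exact test or a chi-square test with Yates' correction, reading the commonest fold as 3 over 1 reads and assuming a total of 5000000 IP reads. An input of 1 can stand for a pseudocount. This gave reads for 99.2% of 13011 mAb peaks and 99.7% of 8282 rAb peaks with a −log10 p above 0 and below the cap. Peaks were aligned to 62 RefSeq ribosomal RNA sequences by BLAST+ 2.17.0 (at least 20 bases at 90% identity). Percentages have exact Clopper-Pearson 95% intervals. Region assignment, read tracing and the Benjamini-Hochberg adjustment were tested on simulated data. Python 3.11.15, numpy 2.4.6, scipy 1.17.1 and pandas 2.3.3 were used.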

Additional observations from a re-analysis of the deposited data

Results flagged for a closer look

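Of the 42 Slc genes called in both colon lists, 2 had all peaks below input in the mAb list and above it in the rAb list. In Slc25a5, an ADP/ATP carrier of the mitochondrial inner membrane, the log2 folds were -1.44 and -0.70 with mAb and 0.85 with rAb (4 IP reads, −log10 p 0.508). In Slc35g1 they were -0.31 with mAb and 0.92 with rAb (3 IP reads, −log10 p 0.388). Both rAb values were far below the cutoff of 3 for the p. The same count was not worked out over all protein-coding genes, and the folds of the 2 lists are not on the same footing. The difference was not tested, each list has 1 value per peak, and the peaks of the 2 lists did not overlap in either gene.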

How the results depend on the processing

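No paired analysis was possible because numbered replicates exist only in the small intestine, where the deposited list merges them, and leaving out 1 of those replicates was not run for the same reason. Of 51 alternatives over 13 results, 35 kept the count within 1.5 times, or the share within its interval, and 16 did not. With mAb, the 5 Slc sites became 0 at a log2 fold above 4, 11 above 1, 12 by adjusted p, 1 with adjoining intervals merged, and 0 without ribosomal RNA-like or without mostly soft-masked peaks. The 1 mAb gene with a site became 0, 4 and 5 at the first 3 of these. With rAb, the 6 sites became 2 with intervals merged, 2 without ribosomal RNA-like peaks and 1 without mostly soft-masked peaks. Of the 2 without ribosomal RNA-like peaks, 1 was a 6-base piece of the Slc22a22 stretch. The 2 rAb genes became 1 at a log2 fold above 4 and 1 at a −log10 p above 5. In the small intestine, 24 sites on 8 genes became 9 on 4 at a log2 fold above 4. The counts of called genes, the shares in coding sequence and the overlap of the colon lists (35, or 24 at a reciprocal overlap of 50%) moved by less. Leaving out mostly soft-masked peaks, and peaks with a fold of 0 or less, was chosen after seeing the data. The search for sequencing adapter at peaks was not run, since its sequence was not used here. Read numbers limit the colon values, since the traced Slc peaks had a median of 3 IP reads.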
